A study of Arabidopsis thaliana with 8 samples.

Results

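AGL67 and EEL are genes for transcription factors of seed maturation in Arabidopsis thaliana, and each is read by a single probe set on the array. The members were chosen by gene symbol, as the probe sets for which the platform annotation names AGL67 or EEL as the only gene. They are 2 of 13513 single-gene probe sets, among 22746 probe sets that are not controls. The rule uses symbols, but the genes were chosen with their signals on these arrays already known, so their levels and the differences between groups are given as a description, with no test of them.

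All arrays were made from whole seed of the Col-0 strain. The 8 arrays form 4 groups of 2, namely untreated dry seed and seed imbibed for 24 h in water, in 3 µM abscisic acid (ABA) or in 30 µM ABA, and the replicates carry the letters A and B. Both arrays of a group share a number in their titles, except in 3 µM ABA, where replicate A carries the number 3 and replicate B the number 5. The labels do not say whether replicates came from separate seed batches, so the spread between them may be technical, and they give no number of seeds and no seed age. Values are signal intensities on a linear scale, scaled by the submitters to a common trimmed mean of 100.007 to 100.009 per array. Differences between groups are given as differences of log2(signal + 3.99), with the standard error (SE) from a single fit in limma. That scale understates the change of dim probe sets.

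Seed maturation is the last phase of embryo development, in which storage proteins and oil accumulate, the seed acquires tolerance of drying and dormancy is set. ABA and a small network of transcription factors drive this programme, and germination ends it. Dry seed holds stored transcripts from maturation, many of which disappear once the seed takes up water, while ABA restrains germination. EEL, for ENHANCED EM LEVEL, is a bZIP protein of group A, the family that also holds ABI5 and the ABF factors and binds ABA-responsive promoter elements. It binds the same sites as ABI5 in the promoter of an Em gene, which encodes a late embryogenesis abundant (LEA) protein, and its loss raises Em transcript in the embryo. AGL67 is a MADS-domain protein of the MIKC* type, a branch otherwise best known from pollen, and has been linked to tolerance of drying in seed and to restraint of germination in the heat.

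The AGL67 signal was high in dry seed, far lower in all imbibed seed, and higher in ABA than in water. Its signal was 1080 and 1002 on the dry arrays A and B, 37.9 and 50.6 in water, 54.1 and 93.4 with 3 µM ABA, and 82.0 and 148 with 30 µM ABA. Both dry arrays lay far above all imbibed arrays, and both arrays of each ABA group lay above both water arrays. The 3 µM and 30 µM groups overlapped, since 3 µM replicate B lay above 30 µM replicate A. In each imbibed group the B array was the higher of the pair, by a factor of 1.34 in water, 1.73 in 3 µM ABA and 1.81 in 30 µM ABA, whereas the dry arrays differed by a factor of 1.08.

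EEL had the same order of group means, and its arrays lay closer together within each group. Its signal was 471 and 497 on the dry arrays A and B, 37.6 and 31.8 in water, 44.6 and 59.5 with 3 µM ABA, and 78.4 and 78.3 with 30 µM ABA. No groups overlapped, and the order from high to low was dry seed, 30 µM ABA, 3 µM ABA and water. The 2 arrays in 30 µM ABA differed by a factor of 1.001, those in 3 µM ABA by 1.34. Signals of the members are not set against each other as levels, because different probes differ in brightness for the same amount of transcript.

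**Figure D1:**
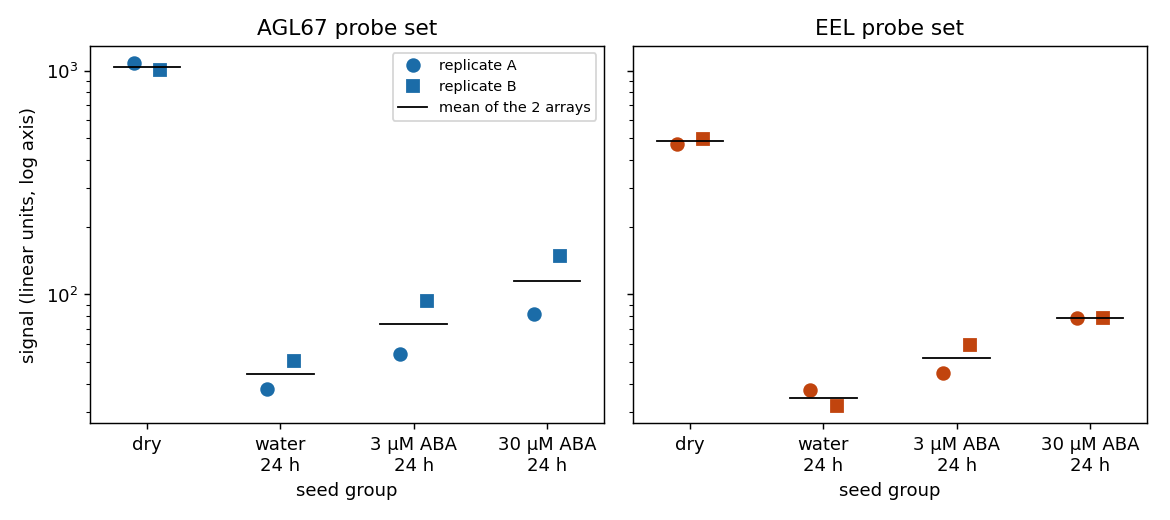
Signal of the AGL67 probe set (left) and the EEL probe set (right) on each of the 8 arrays, on a log axis, by seed group. Circles are replicate A, squares replicate B and bars the mean of the 2 arrays; dry arrays sit at 1002 and 1080 for AGL67 and at 471 and 497 for EEL, and water arrays at 50.6 or below.

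On its array, AGL67 stood among the brightest probe sets in dry seed, with 97.7% of all probe sets at or below it on both arrays. In water 53.1% and 57.3% lay at or below it, and in 30 µM ABA 66.2% and 78.2%. EEL stood at 93.1% and 93.5% in dry seed, at 53.0% and 49.7% in water and at 65.3% and 65.2% in 30 µM ABA. In water both genes thus lay near the middle of the ranking of all probe sets. Detection calls were not used, so this rank does not show whether the transcripts were detected in water.

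The first comparison asks how the level of each transcript after 24 h in water stood against dry seed. Stored transcript that remained and transcript newly made cannot be told apart in it. AGL67 went from a mean signal of 1041 ± 54.8 (SD, n = 2) in dry seed to 44.2 ± 9.03 in water, which is 4.25% of the dry level and 23.5-fold lower. The log2 difference was -4.45 ± 0.30 (SE), and 0.992% of the 15922 probe sets kept for the fit had a lower one. EEL went from 484 ± 18.1 to 34.7 ± 4.10, or 7.17% of the dry level and 14.0-fold lower. Its log2 difference was -3.66 ± 0.19 (SE), and 1.97% of probe sets had a lower one. As whole seed was used, fewer cells of a type and less RNA per cell cannot be told apart in any of these values.

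Separation of these groups was common. Both water arrays lay below both dry arrays in 36.6% of all probe sets tested, so the separation of both members is not particular to them. By limma, 28.5% were called lower and 37.5% higher in water. The size of the difference depended on scaling. With a common median per array it was -5.01 for AGL67 and -4.22 for EEL. Spike-in scaling, to the bioB, bioC, bioD and cre controls, gave -3.52 and -2.74. These controls are added at hybridization, so this scaling does not correct for the amount of RNA taken from the seed. The median of all probe sets lay at -0.37 with the common median and 0.97 with spike-in scaling, against 0.15 as deposited. Of 6 ratios of 3' to 5' signal of plant control transcripts, which reflect RNA quality, 3 did not overlap between dry seed and water. Their part in the low signals in water was not tested.

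The second comparison asks what ABA in the medium did to the level reached at 24 h. In 30 µM ABA, AGL67 had a mean signal of 115 ± 47.0 (SD, n = 2), which is 2.60 times its level in water and 11.1% of its dry level. The log2 difference from water was 1.26 ± 0.30 (SE), and 1.005% of probe sets had a higher one. EEL had 78.4 ± 0.0437, which is 2.26 times its level in water and 16.2% of its dry level, with a log2 difference of 1.10 ± 0.19 (SE) and 1.33% of probe sets higher. By these values 30 µM ABA left both genes far below dry seed, at log2 differences from dry of -3.19 for AGL67 and -2.57 for EEL.

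In 3 µM ABA, AGL67 had 73.8 ± 27.8 (SD, n = 2), 1.67 times its level in water, and EEL had 52.1 ± 10.6, 1.502 times its level in water. The log2 differences from water were 0.65 ± 0.30 and 0.53 ± 0.19 (SE). Set against the whole log2 distance from water to dry seed, the mean in 3 µM ABA stood 14.7% of the way for AGL67 and 14.4% for EEL, and the mean in 30 µM ABA 28.3% and 29.9%. These shares lay close together at each dose, although the distance was longer for AGL67, and no test was made of them. They rest on 2 arrays a group. Leaving out single arrays moved the AGL67 difference from water between 0.28 and 1.03 in 3 µM ABA and between 0.85 and 1.67 in 30 µM ABA. With spike-in scaling AGL67 lay above water by 0.93 in 3 µM ABA and 1.05 in 30 µM ABA, EEL by 0.79 and 0.89. All these values use the same water arrays and are not independent of each other.

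Both 30 µM arrays lay above both water arrays in 22.3% of all probe sets, and both 3 µM arrays above both water arrays in 18.2%. For 30 µM ABA against water the share called by limma was 0.415% higher and 0.0377% lower. These 72 probe sets became 0 without water replicate A, without water replicate B or without 30 µM replicate B, and 5 without 30 µM replicate A. They became 2 with no trend, 11 with no filter and 204 with spike-in scaling. For 3 µM ABA against water limma called 0 of 15922, or 0% in either direction, with 635 at an unadjusted p under 0.05. Of the 6 control ratios of RNA quality, 2 did not overlap between water and 30 µM ABA, and likewise between water and 3 µM ABA. On the water arrays the GAPDH ratio of one control set read 1.31 and 1.05, against 0.884 to 0.974 on the ABA arrays. The actin ratio of another read 2.94 and 3.80, against 2.30 to 2.73. Their part in the higher AGL67 and EEL signals was not tested.

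The doses were also set side by side. The difference between 30 µM and 3 µM ABA was 0.61 ± 0.30 (SE) on the log2 scale for AGL67, whose arrays overlapped, and 0.57 ± 0.19 for EEL, whose arrays did not. Both 30 µM arrays lay above both 3 µM arrays in 14.7% of all probe sets. All 8 EEL arrays were in the complete order dry, 30 µM, 3 µM, water, which held for 1.94% of probe sets, and the reverse order held for 1.75%. The step between doses depended on scaling. With spike-in scaling it was 0.13 for AGL67 and 0.10 for EEL. The EEL arrays then overlapped too, at 69.3 and 76.7 in 3 µM ABA against 69.6 and 88.2 in 30 µM ABA. The median of all probe sets for this step was -0.49 with spike-in scaling, against -0.018 as deposited, so both members stayed above it. Both ABA groups lay above both water arrays for both genes with the deposited scaling, quantile normalization, a common median and spike-in scaling.

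Single arrays moved the ABA values. Without 3 µM replicate B, whose title number differs, the difference of 3 µM ABA from water was 0.28 for AGL67 and 0.33 for EEL, and without 3 µM replicate A it was 1.03 and 0.72. For AGL67 the difference of 30 µM ABA from water was 1.67 without 30 µM replicate A and 0.85 without 30 µM replicate B. For EEL it lay between 0.99 and 1.20 whichever array was left out.

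**Figure D2:**
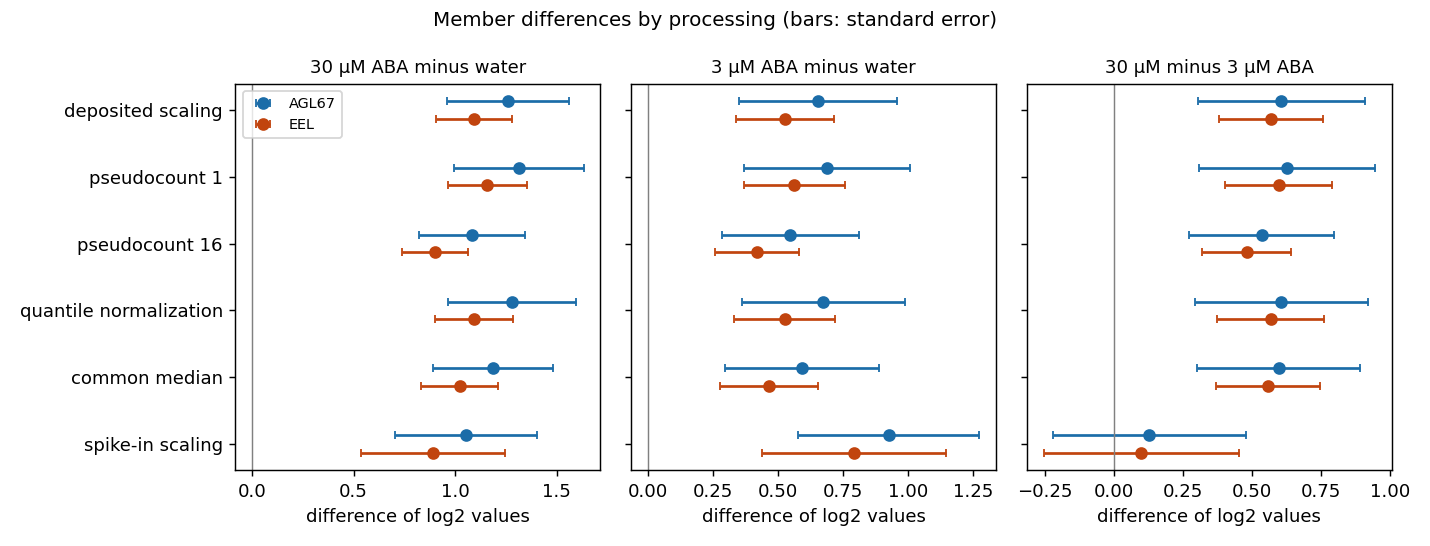
Differences of log2 values for AGL67 (blue) and EEL (red) in 3 contrasts, one row per way of processing, with bars of 1 standard error. All differences from water are above 0; the difference between 30 µM and 3 µM ABA is 0.61 and 0.57 with the deposited scaling and 0.13 and 0.10 with spike-in scaling.

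The genes whose profiles were most like those of the members were found by the root mean square difference between log2 profiles over the 8 arrays, each centred on its own mean, among 8897 other single-gene probe sets. The 5 nearest to AGL67 were AT5G46230, AT1G23070, AT3G03150, AT4G33980 and AT4G27530, at differences of 0.22 to 0.24. AT5G46230, the nearest, read 682 and 648 on the dry arrays, 34.6 and 34.9 with water, 45.5 and 52.3 with 3 µM ABA, and 67.0 and 109 with 30 µM ABA. It shared the higher B array in both ABA groups and, unlike AGL67, had no overlap between doses.

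Nearest to EEL were MGL, AT4G12130, AT4G03200, AT3G26770 and AT5G07360, at differences of 0.18 to 0.19. MGL, for methionine gamma-lyase, an enzyme that breaks down methionine, read 625 and 578 on the dry arrays, 42.9 and 52.0 with water, 56.2 and 81.6 with 3 µM ABA, and 121 and 126 with 30 µM ABA. Like EEL, MGL had no overlap between groups in that order. AGL67 and EEL lay 0.41 apart, so that EEL ranked number 56 among the profiles nearest to AGL67 and AGL67 number 157 among those nearest to EEL. All these likenesses rest on the same 8 arrays and mostly on the drop from dry to imbibed seed, and carry no test.

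**Figure D3:**
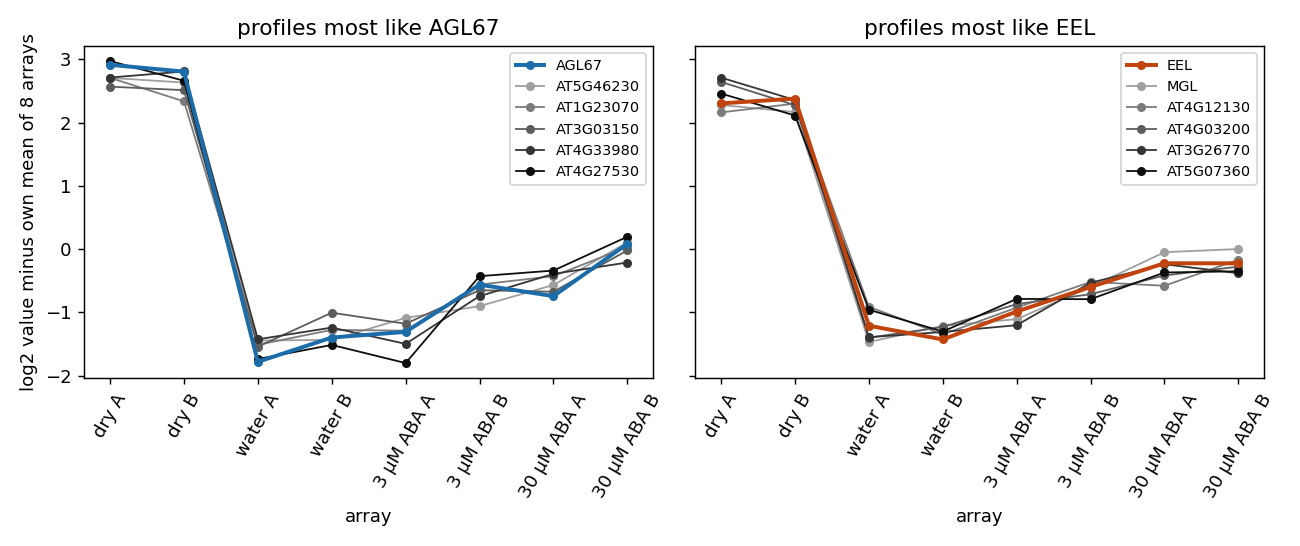
Log2 values minus their own mean over the 8 arrays, by array, for AGL67 and its 5 nearest profiles (left) and for EEL and its 5 nearest (right). In both panels the lines drop from the dry to the water arrays and lie higher on the 30 µM ABA arrays; the root mean square differences are 0.22 to 0.24 on the left and 0.18 to 0.19 on the right.

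The kept genes beside the members on the chromosome were not called in any comparison. RefSeq places AGL67 (AT1G77950) on chromosome 1 and EEL (AT2G41070) on chromosome 2. Of the 4 protein-coding genes on each side, 6 of 8 around EEL and 3 of 8 around AGL67 had a named probe set, and 5 and 1 of these were kept. In limma 0 of the 5 around EEL were called in any of the comparisons with dry seed or water, with 1 at an unadjusted p under 0.05 for water against dry seed. Of all probe sets, 28.5% were called lower and 37.5% higher in water than in dry seed. In 30 µM ABA against water 0.415% were called higher and 0.0377% lower, and in 3 µM ABA 0%. For ABA a count of 0 is thus near the share of all probe sets. Their log2 differences between water and dry seed ran from -0.31 to 0.67, against -3.66 for EEL. AT1G77940, next to AGL67, read 1355 and 1222 on the dry arrays and 1700 and 1207 with water, with a log2 difference of 0.15 (limma adjusted p = 0.505). AGL66, of the same MADS branch and 2 genes from AGL67, had signals of 4.74 and 11.98 on the dry arrays and at most 8.68 after imbibition, and was too dim to be kept. These neighbours were looked at after the values of the members were known.

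Other genes came from 8 lists of 124 genes, of which 38 had a named probe set and 33 were bright enough to be kept. The lists cover the maturation programme, the families of the members, germination switches and ABA signalling. They were chosen with earlier results of these data known, so their counts beside the shares of all probe sets are a description. They also hold markers of other tissues, which make up 4 of the 33. Genes of the network without a named probe set, ABI3, ABI5, FUS3, LEC1 and the Em genes among them, were not analysed here. In water 25 of the 33 were called lower and 3 higher than in dry seed, against 28.5% and 37.5% of all probe sets. The 3 that rose were SPT, a bHLH regulator of germination, and 2 genes of the list of markers of other tissues.

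All 4 kept genes of the list of maturation regulators fell in water, with a median log2 change of -3.37 against 0.15 for all probe sets. AT1G75490 fell from a signal of 2630 ± 815 (SD, n = 2) to 46.8 ± 2.64 (log2 change -5.66 ± 0.34 SE, limma adjusted p = 2.71e-07). AT1G76590 fell from 2216 ± 258 to 66.8 ± 28.0 (adjusted p = 2.87e-07 in limma), a log2 change of -5.02. Both changes were larger than those of AGL67 and EEL, a difference that was not tested. AT1G21000 fell by 1.72 on the log2 scale, to 767 ± 5.38. BZIP53, a bZIP activator of storage protein genes, changed least, from 170 ± 66.9 to 89.5 ± 13.3 (-0.85 ± 0.27 SE, limma adjusted p = 0.0178).

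In 30 µM ABA 0 of these 4 were called by limma, with 2 at an unadjusted p under 0.05. All 4 lay above water, with a median of 0.65 against 0.016 for all probe sets. AT1G75490 had the largest of these log2 differences, 1.03 ± 0.34 (SE, limma adjusted p = 0.346), with signals of 124 and 80.0 in 30 µM ABA against 44.9 and 48.6 in water.

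In the family of EEL, 3 of 12 other group A bZIP genes had a named probe set and 2 were kept. AT5G44080 fell in water from 78.0 ± 4.74 to 27.8 ± 4.07 (log2 change -1.37 ± 0.21 SE, limma adjusted p = 0.000207) and had 33.0 ± 0.357 in 30 µM ABA. FD, a bZIP factor of flowering, was dim, at 13.1 ± 6.44 in dry seed and 5.17 ± 3.74 in water, and was not called (adjusted p = 0.069 in limma). AT5G42910 had signals of at most 3.43 and was not kept. For 30 µM ABA against water limma called 0 of the 2, with 0 at an unadjusted p under 0.05.

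Of the other 5 MIKC* genes in the family of AGL67, all had a named probe set and 3 were kept. AGL65 fell in water from 55.8 ± 11.3 to 16.6 ± 5.19 (log2 change -1.55 ± 0.32 SE, limma adjusted p = 0.00154), and AGL94 from 42.3 ± 30.2 to 5.91 ± 0.110 (-2.05 ± 0.45 SE, adjusted p = 0.0022). AGL94 was dim on every imbibed array, at 4.68 to 9.22, and its dry arrays A and B were apart, at 63.6 and 20.9. Its mean, by which it was kept, was thus raised by the dry arrays. AGL30 was not called, at 37.1 ± 13.9 and 24.0 ± 2.07 (adjusted p = 0.119 in limma). AGL66 and AGL104 were too dim to be kept, with signals of at most 11.98. In 30 µM ABA 0 of the 3 were called against water by limma, with 0 at an unadjusted p under 0.05.

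Of the LEA and Em list, whose genes encode protectants against drying, 14 of 20 were kept. In water 12 were called lower and 0 higher, against 28.5% and 37.5% of all probe sets, with a median of -3.19. AT3G22490 fell furthest, from 2538 ± 914 to 27.1 ± 15.8 (log2 change -6.41 ± 0.52 SE, limma adjusted p = 2.02e-06). The exceptions were LEA4-5 and AT3G15670, whose dry arrays disagreed, at 2999 and 274 and at 2453 and 18.8. In 30 µM ABA 4 of the 14 were called higher than in water and 0 lower, against 0.415% and 0.0377% of all probe sets, and the median was 1.39. AT5G44310 had 597 ± 125 against 212 ± 43.1 in water (log2 difference 1.48 ± 0.23 SE, limma adjusted p = 0.0352). The other 3 were AT2G42560, AT4G36600 and AT4G39130, at log2 differences of 3.00, 2.78 and 2.62, beside 1.26 for AGL67 and 1.10 for EEL.

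Seed storage genes served to check the labelled tissue. Of 15, 4 had a named probe set, and their signals in dry seed ran from 618 to 3618. All 4 fell in water, with a median of -3.45, and 2 were called higher in 30 µM ABA than in water, AT3G18570 at 2.25 (limma adjusted p = 0.00389) and AT1G03890 at 1.16 (limma adjusted p = 0.0294). OLEO3 and AT3G01570 lay above water by 0.92 and 0.81 on that scale and were not called. The summed signal of the 4 was 5316 and 8094 in dry seed, 834 to 912 in water and 1678 to 1776 in 30 µM ABA.

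Of 12 markers of other tissues, 6 had a named probe set, and their summed signal was 127 to 167 in dry seed, 89.0 to 100.1 in water and 75.8 to 86.1 in 30 µM ABA. The guard cell lineage genes SPCH and MUTE rose in water. SPCH went from 2.08 ± 1.73 to 46.0 ± 8.74 (limma adjusted p = 1.46e-05). MUTE went from 1.47 ± 0.735 to 14.9 ± 4.09 (limma adjusted p = 0.000987). Both were dim on the dry arrays A and B, at 3.30 and 0.862 for SPCH and 1.99 and 0.947 for MUTE. The means by which SPCH and MUTE were kept were thus raised by the imbibed arrays. LHCB4.2, of the leaf antenna, fell from 107 ± 38.3 to 20.3 ± 6.09 (limma adjusted p = 0.00168), and FMA, also of the guard cell lineage, was not called, at 10.98 ± 3.65 and 9.50 ± 0.664. EXPA7 and AT3G28750 were too dim to be kept. No marker was at a signal of 0. Their part in the values of AGL67 and EEL was not tested.

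GI, a clock protein, was the only kept gene of 25 in the list of ABA metabolism and signalling. Its signal fell in water from 234 ± 28.6 to 42.8 ± 5.21 (log2 change -2.35 ± 0.20 SE, limma adjusted p = 2.56e-06) and was 67.6 ± 1.77 in 30 µM ABA, where it was not called (adjusted p = 0.324 in limma). SPT, the only kept gene of 17 in the list of repressors and germination switches, ran the opposite way to both members, from 18.4 ± 3.36 in dry seed to 245.6 ± 6.998 in water and 163 ± 1.18 in 30 µM ABA (limma adjusted p = 0.35 against water).

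Over all lists, 6 of 33 genes were called higher and 0 lower in 30 µM ABA than in water, against 0.415% and 0.0377% of all probe sets. As the lists were not chosen independently of these data, this contrast is no test of them. The number called fell when a water or 30 µM ABA array was left out, both among these genes and among all probe sets. It did not fall when a dry or 3 µM ABA array was left out, although those fits had as few arrays. Leaving out a water or 30 µM ABA array leaves a lone array in a compared group, so the fall does not show that single arrays produced the differences. What lowered the count was not tested. In 3 µM ABA limma called 0 of 33, with 7 at an unadjusted p under 0.05.

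**Figure D4:**
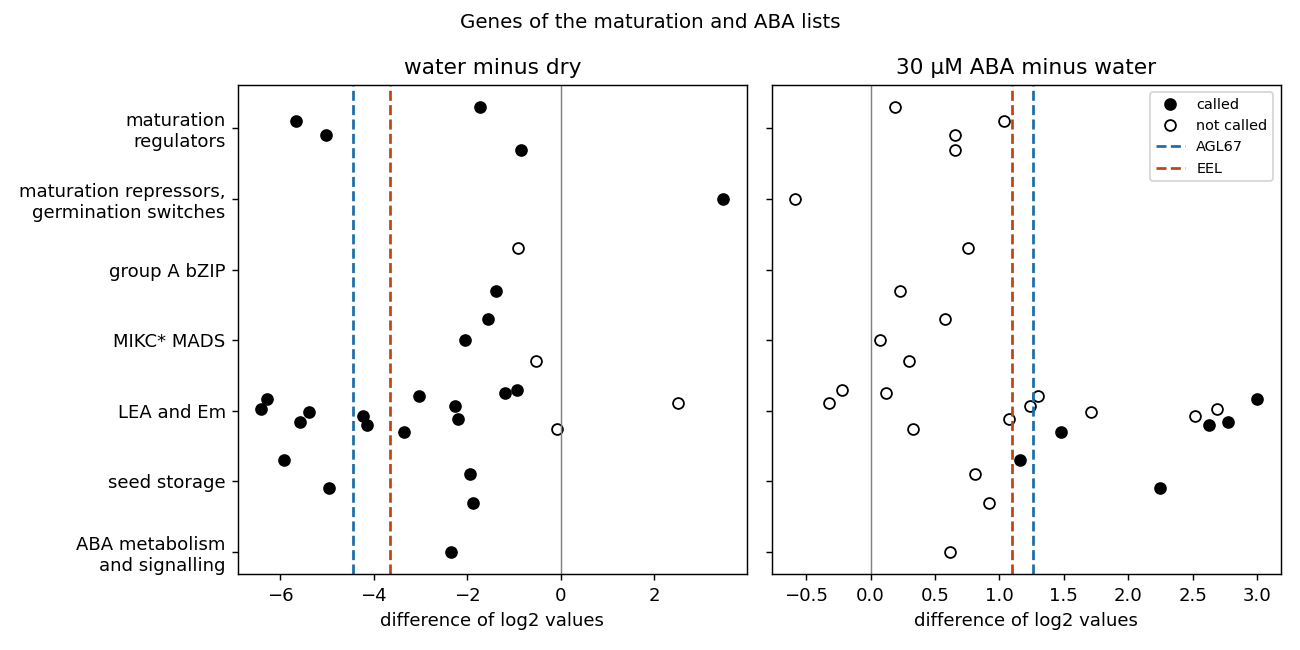
Differences of log2 values for kept genes of 7 lists (points, one per gene; filled where called by limma), for water minus dry seed (left) and 30 µM ABA minus water (right), with dashed lines at AGL67 and EEL. On the left the lines stand at -4.45 and -3.66 within the spread of LEA and storage genes. On the right they stand at 1.26 and 1.10, below the 4 called LEA genes at 1.48 to 3.00.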

How the data were processed

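The authors deposited 1 signal intensity per probe set and array, on a linear scale. The submitters' processing notes name MAS5 without a version. Depth does not apply to arrays, and the number of arrays limits the precision. Of 22810 probe sets, 64 were controls. The platform annotation named 1 gene for 13513, and 13436 matched RefSeq genes of TAIR10.1, used for names and gene order. Signals became log2(signal + 3.99), where 3.99 was the 20th percentile of all values. Probe sets with a mean above the 30th percentile were kept, 15922 in all. One fit over all 8 arrays in limma 3.58.1 (R 4.3.3), with an intensity trend and 4 residual degrees of freedom, gave two-sided tests with Benjamini-Hochberg adjustment at 0.05. The fit was tested on simulated data. With 2 arrays a group, the smallest exact permutation p is 0.333, so no permutation test was made. A gene was read by its brightest single-gene probe set. Named genes were the members, the 5 nearest profiles of each, every gene of a list with 6 or fewer kept, up to 4 called genes of a longer list, and, where none was called, the one with the smallest p. Members and lists were chosen with earlier results of these data known. Alternatives were other pseudocounts, scalings, filters and variance trends, a replicate block, and leaving out each array. Sequences were not used here.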

Additional observations from a re-analysis of the deposited data

How the results depend on the processing

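The direction of all 8 differences of AGL67 and EEL held under every alternative run. For all but AGL67 at 30 µM against 3 µM ABA the groups do not overlap, so leaving out an array could not reverse it. The filter and trend settings cannot change these differences and were not run for them. For water against dry seed, AGL67 lay at -4.14 with a pseudocount of 16, -5.01 under median scaling and -3.52 under spike-in scaling, and EEL at -3.30, -4.22 and -2.74. For 30 µM ABA against water, EEL lay at 0.90 with a pseudocount of 16 and 0.89 with spike-in scaling. With spike-in scaling EEL lay at 0.79 for 3 µM ABA against water and at 0.10 for 30 µM against 3 µM ABA. The median of all probe sets then lay at 0.29 and -0.49, against 0.025 and -0.018 as deposited, so it moved the same way. The causes were not tested. Leaving out each array gave, for AGL67, -4.64 to -4.26 (water against dry), 0.85 to 1.67 (30 µM against water), 0.28 to 1.03 (3 µM against water) and 0.19 to 1.02 (30 µM against 3 µM), and for EEL -3.77 to -3.55, 0.99 to 1.20, 0.33 to 0.72 and 0.37 to 0.76. With an array left out, list genes called numbered 26 to 31 for water against dry, 0 to 7 for 30 µM ABA against water and 0 for 3 µM ABA. With all arrays they numbered 28, 6 and 0. Spike-in scaling gave 24 for water against dry and 2 for 3 µM ABA. For 30 µM ABA no filter gave 2 and no trend 1. Where an array was left out, the lone array of its group was assumed to vary like the others. The letters A and B were not taken as pairs: deviations of same-letter arrays correlated at -0.081 to 0.31. With the letter as a replicate block 7 list genes were called for 30 µM ABA against water, and 135 probe sets in all against 72. The differences of AGL67 and EEL, 1.26 and 1.10, cannot change with this block, because every group holds both letters. Their SE went from 0.30 to 0.22 for AGL67 and stayed at 0.19 for EEL.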
